A study of Mus musculus with 22 samples.

Results

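The nuclear-encoded genes of the mitochondrial respiratory chain were followed in the hypothalamus of C57BL/6J mice. Members were the lines of the gene count table whose mouse symbol begins with Nduf, Uqcr, Cox4i, Cox5, Cox6, Cox7, Cox8 or Atp5, together with Sdha, Sdhb, Sdhc, Sdhd and Cyc1, without the 7 lines marked as pseudogenes by "-ps". The rule gave 98 of 41456 gene identifiers. They were listed by role as 7 core and 29 accessory subunits of complex I, 8 complex I assembly factors, 4 subunits of complex II, 9 of complex III, 18 of complex IV and 15 of complex V. A further 8 genes matched a prefix and were not assigned to a complex. They include Atp5md and Atp5mpl, which carry the Atp5 prefix of the complex V genes, so the complex V values leave these out. Polyadenylated RNA was sequenced from PWScrm+/p- mutant mice, which lack the paternal copy of the Snord116 small nucleolar RNA genes, and from PWScrm+/p+ control mice. Tissue was taken at ZT0, when the lights came on, or at ZT6, and the ZT6 mice had either been undisturbed or been kept awake for the preceding 6 h (sleep deprivation, SD). There were 22 libraries, 3, 4 and 4 of each genotype in the 3 states. The labels give strain, tissue, genotype and state. They give no age and do not say that libraries come from separate animals, so p-values measure the spread between these libraries, which may be technical. Bulk tissue was measured, so fewer cells of a type and less RNA per cell cannot be told apart.

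The respiratory chain sits in the inner mitochondrial membrane. Complex I takes electrons from NADH and complex II takes them from succinate. Both pass them to ubiquinone, complex III passes them on to cytochrome c, and complex IV hands them to oxygen. Proton pumping by complexes I, III and IV drives ATP synthesis by complex V. A small number of subunits are encoded by mitochondrial DNA and the rest by the nucleus, and neurons draw most of their ATP from this pathway. NRF1, the ETS factor GABP and YY1 are transcription factors known to bind promoters of many of the nuclear genes.

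Library totals ran from 3120328 to 46965594 counts in 21 libraries, and mutant ZT6 replicate 2 held 7348 counts. Markers of neurons, oligodendrocytes and astrocytes summed to 8088 to 13690 CPM (counts scaled to a common library size of 1e+06) in 17 libraries and to 99.4 to 638 CPM in 4 others. These 4, namely replicate 3 of mutant ZT6 and every mutant library of ZT0, held 7689 to 22190 CPM of the collagen and proteoglycan genes Col1a1, Col1a2, Col3a1, Dcn and Lum. Results below rest on the 17 libraries (control: 3 at ZT0, 4 at ZT6, 4 after SD; mutant: 2 at ZT6, 4 after SD) unless another set is named. The 17 Snord116 lines of the table held at most 109 counts in a control library and 0 in every mutant library. The sample titles carry S numbers, and libraries S1 to S4, S5 to S18 and S43 to S46 are treated as 3 sets. Each of the 4 libraries S43 to S46 belongs to a different group (replicate 4 of control ZT6, control SD, mutant ZT6 and mutant SD).

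RefSeq promoters (GRCm38.p6, from 250 bases before to 50 after the start) were matched by symbol for 75 of the 98 members. A gene counted if any of its promoters held the letters. The NRF1 motif was read on both strands with any base allowed at its central variable letter. It was present in 19 of the 75 members (25.3%) and in 5.19% of 27025 genes with promoters of the same length. Its fully palindromic form, included in that count, was in 7 members (9.33%) and in 1.07% of all these genes. The YY1 motif was in 5 members (6.67%) against 0.755%, and the ETS motif CCGGAAGT in 5 (6.67%) against 4.31%. These matches describe letters, not binding. The promoters of 6 members are shown, with capitals marking the NRF1, ETS or YY1 letters. Atp5g1 (chr11:96075582-96075881, minus strand), Atp5g2 (chr15:102670998-102671297, minus strand) and Atp5g3 (chr2:73911277-73911576, minus strand) code for the same mature protein, subunit c of ATP synthase, and are shown because their counts differed between libraries in different ways. Cox6a1 (chr5:115348909-115349208, minus strand) and Uqcrc1 (chr9:108936398-108936697, plus strand) carry the NRF1 letters at 2 places each. Ndufa9 (chr6:126849095-126849394, minus strand) carries the YY1 letters and had the smallest p of the members between ZT0 and ZT6.
Atp5g1: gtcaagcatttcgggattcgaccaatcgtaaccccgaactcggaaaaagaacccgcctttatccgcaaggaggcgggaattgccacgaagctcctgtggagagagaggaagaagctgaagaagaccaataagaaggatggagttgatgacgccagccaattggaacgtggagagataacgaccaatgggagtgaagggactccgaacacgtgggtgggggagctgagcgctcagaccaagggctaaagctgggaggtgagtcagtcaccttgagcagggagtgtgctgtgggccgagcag
Atp5g2: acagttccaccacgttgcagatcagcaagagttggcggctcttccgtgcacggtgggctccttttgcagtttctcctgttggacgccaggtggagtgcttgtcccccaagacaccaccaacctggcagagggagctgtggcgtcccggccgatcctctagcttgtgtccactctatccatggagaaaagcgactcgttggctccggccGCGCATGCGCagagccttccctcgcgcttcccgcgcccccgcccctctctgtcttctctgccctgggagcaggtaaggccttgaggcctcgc
Atp5g3: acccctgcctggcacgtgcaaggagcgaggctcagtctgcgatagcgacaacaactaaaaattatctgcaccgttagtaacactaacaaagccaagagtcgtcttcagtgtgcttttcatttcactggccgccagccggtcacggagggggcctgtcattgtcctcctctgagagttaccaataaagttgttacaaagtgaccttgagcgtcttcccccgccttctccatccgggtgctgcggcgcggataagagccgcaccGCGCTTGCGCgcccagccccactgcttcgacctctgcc
Cox6a1: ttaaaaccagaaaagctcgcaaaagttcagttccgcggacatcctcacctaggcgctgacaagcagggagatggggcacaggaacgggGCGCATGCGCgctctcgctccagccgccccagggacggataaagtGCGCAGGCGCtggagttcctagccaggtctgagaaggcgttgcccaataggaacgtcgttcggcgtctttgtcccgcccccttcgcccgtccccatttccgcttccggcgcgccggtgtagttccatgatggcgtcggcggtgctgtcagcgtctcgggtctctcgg
Uqcrc1: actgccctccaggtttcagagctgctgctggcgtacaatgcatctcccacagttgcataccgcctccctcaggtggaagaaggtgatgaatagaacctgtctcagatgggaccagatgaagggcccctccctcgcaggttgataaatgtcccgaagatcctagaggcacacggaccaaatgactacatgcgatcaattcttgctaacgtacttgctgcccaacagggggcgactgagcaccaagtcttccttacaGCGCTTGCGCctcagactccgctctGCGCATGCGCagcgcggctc
Ndufa9: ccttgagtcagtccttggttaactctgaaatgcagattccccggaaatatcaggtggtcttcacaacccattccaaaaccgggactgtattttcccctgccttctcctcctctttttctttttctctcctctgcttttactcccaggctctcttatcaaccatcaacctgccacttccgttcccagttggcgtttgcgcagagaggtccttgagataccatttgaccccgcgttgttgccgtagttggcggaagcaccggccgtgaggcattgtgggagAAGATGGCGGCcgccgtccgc

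Of the 98 members, 93 held enough counts to be tested. The 5 others were Cox8b and Cox8c, complex IV subunits of muscle and testis, and Cox6c2, Ndufa11b and Ndufs6b, which GENCODE annotates as processed pseudogenes. These 5 reached at most 0.298 CPM in any of the 17 library. Per kilobase of transcript, the highest median levels over the 17 libraries belonged to Atp5b, the catalytic beta subunit of ATP synthase, at 535 CPM per kb (range 370 to 604), to Cox4i1, a regulatory subunit of complex IV, at 465 (300 to 917), and to Uqcrh, the hinge protein of complex III, at 410 (280 to 1046). Sdha, the flavoprotein of complex II, had a median of 189 CPM per kb, and Ndufs1, the largest core subunit of complex I, one of 63.0. Tissue-restricted forms were low. Cox6a2 and Cox7a1, the heart and muscle forms of their subunits, had medians of 1.75 and 1.64 CPM, and the testis form Cox6b2 one of 2.50 CPM. Striated muscle markers were at most 6.58 CPM (Acta1) in the 17 libraries. Complex I assembly factors were also low, with medians between 6.84 CPM (Ndufaf8) and 36.3 CPM (Ndufaf4).

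Members spread between libraries to different degrees. Over the 17 libraries the standard deviation of log2 CPM had a median of 0.48 among 93 members and of 0.45 among all 21346 genes tested. The lowest SD was that of the assembly factor Ndufaf7 (0.18), and long, abundant members were also steady. Atp5b ranged from 709 to 1157 CPM and Sdha from 412 to 714 CPM, and their log2 SDs were 0.20 and 0.22. By transcript length the median SD was 0.54 in the 41 members shorter than 700 nt (0.34 to 3.57) and 0.26 in the 9 of 2000 nt or more (0.18 to 0.41), with 0.45 and 0.34 in the classes between, and the ranges overlapped. Atp5e, the epsilon subunit of ATP synthase with a transcript of 421 nt, ranged from 40.4 to 365 CPM with a log2 SD of 0.74. Without control ZT6 replicate 2 the members' median SD was 0.37, and that of all genes 0.44.

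**Figure D1:**
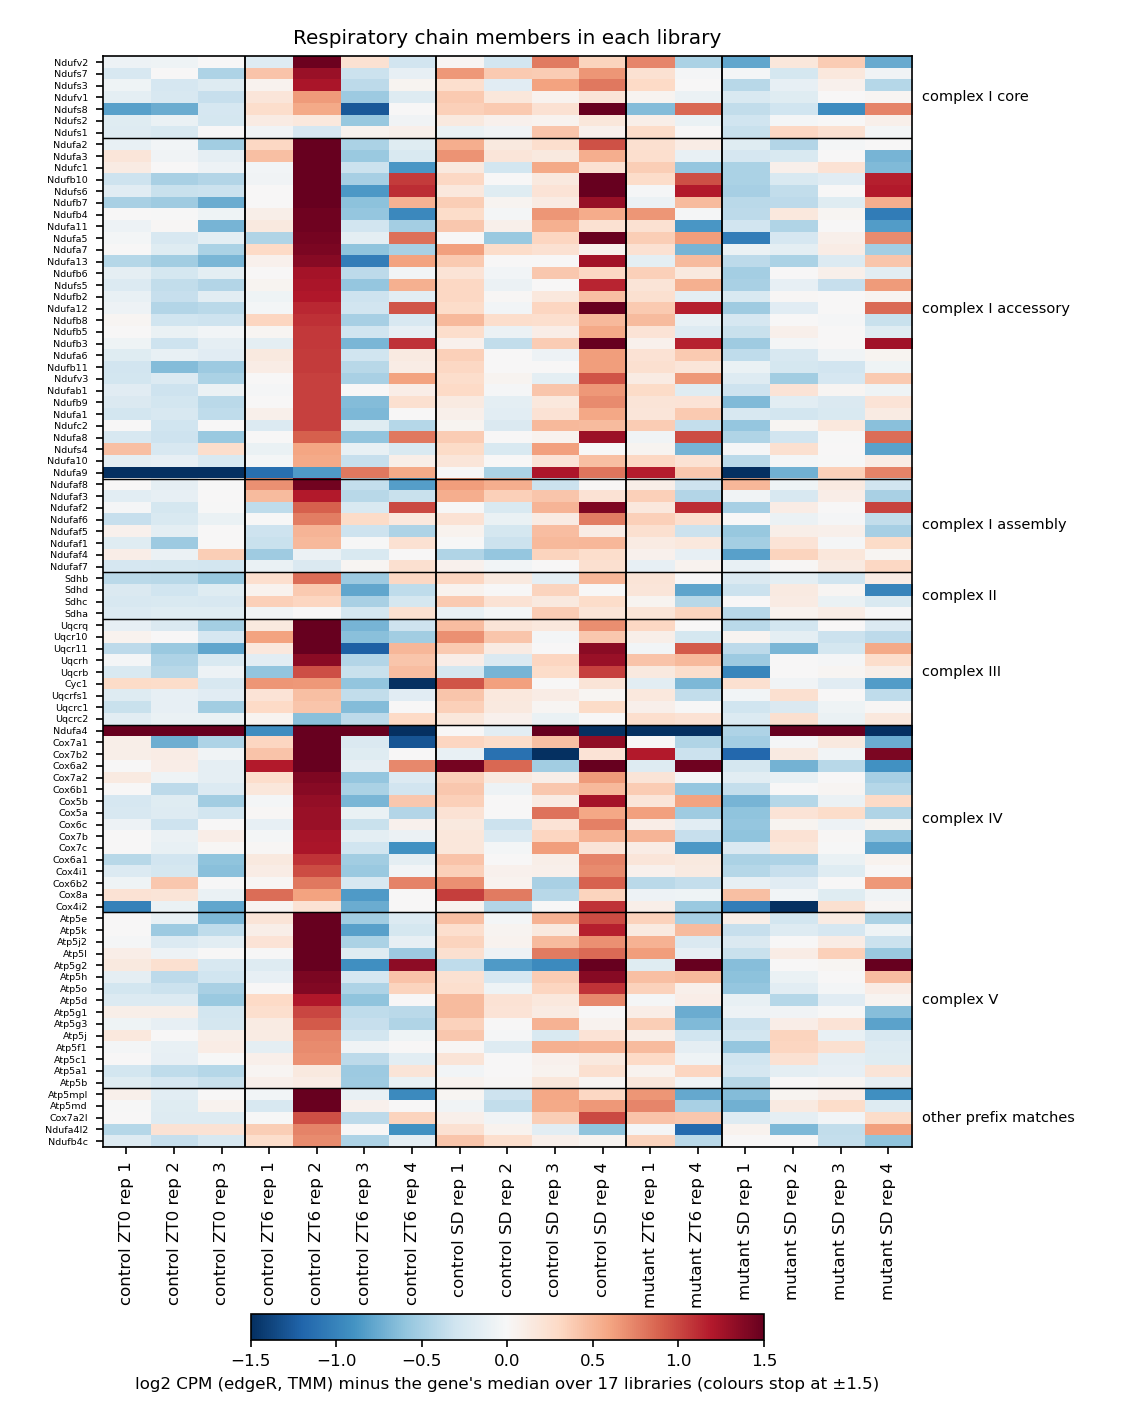
Each row is 1 of the 93 members tested, grouped by role, and each column 1 of the 17 libraries. Colour gives log2 CPM minus the gene's median over the 17 libraries. The column of control ZT6 replicate 2 is red for nearly all members (median 1.08), with Ndufa9 and Uqcrc2 among those below 0.

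In control ZT6 replicate 2, 66 of the 93 members had their highest value of the 17 libraries, where 14% of all genes tested had theirs. The members' median deviation from their gene medians was 1.08 on the log2 scale there, and 87 members lay above their median. By role the deviation was 1.29 in complex IV, 1.20 in complex V, 1.13 in the accessory subunits of complex I, 0.97 in complex III, 0.64 in the core of complex I and 0.36 in complex II. Not every member was high there. Uqcrc2, a core protein of complex III, read 127 CPM there, its lowest value, and 150 to 241 CPM elsewhere. Control SD replicate 4 was the next highest library, with a median deviation of 0.57 and the highest value of 15 members (11.1% of all genes). The lowest were control ZT6 replicate 3 at -0.40, with the lowest value of 25 members (13.6% of all genes), and mutant SD replicate 1 at -0.36, with the lowest value of 24 (5.51%).

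Other short transcripts deviated alongside the members. Among genes of a mean log2 CPM above 4, the 288 genes that are not members and whose median transcript is shorter than 700 nt had a median deviation of 0.94 in control ZT6 replicate 2, 0.57 in control SD replicate 4 and -0.35 in control ZT6 replicate 3. Genes that are not members, with transcripts of 2000 nt or more, stayed between -0.16 and 0.06 in all 17 libraries. The members followed the same order in control ZT6 replicate 2. The 41 members shorter than 700 nt had a median of 1.41, the 26 of 700 to 1200 nt one of 1.04, the 17 of 1200 to 2000 nt one of 0.49, and the 9 longer ones one of 0.14. Cytosolic ribosomal protein genes, which are short too, read 1.29 there, and the 13 mitochondrially encoded genes, which the same complexes need, read -0.51. In mutant SD replicate 1 the members (-0.36) lay below the other short genes (-0.16) and the mitochondrially encoded genes were at -0.60. The part of transcript length in the results below was not tested.

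**Figure D2:**
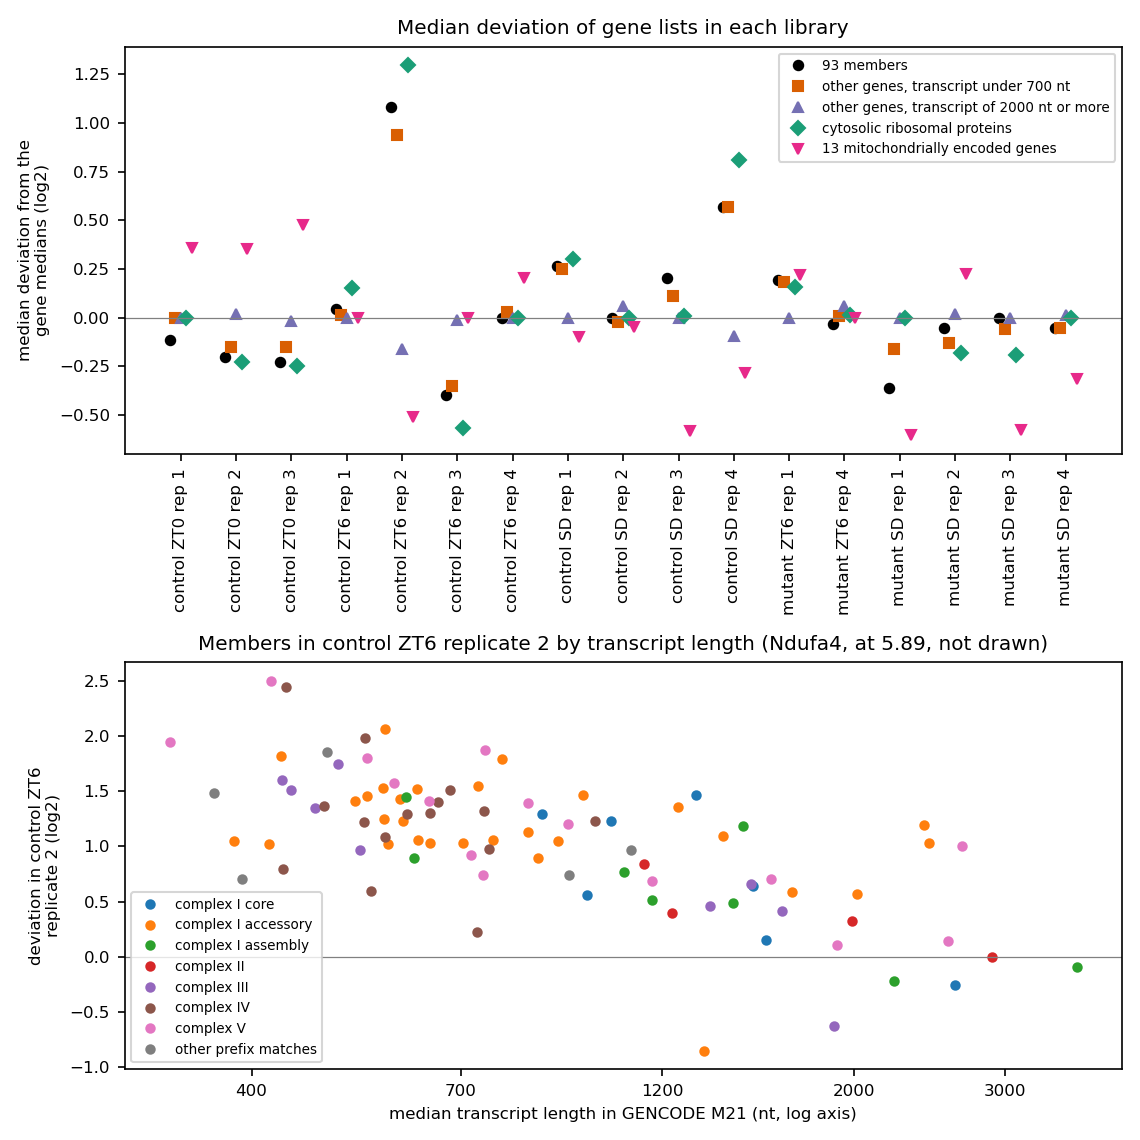
The upper panel gives, for each of the 17 libraries, the median deviation (log2) from the gene medians of the members, of other short and long genes, of cytosolic ribosomal protein genes and of mitochondrially encoded genes. The lower panel plots each member's deviation in control ZT6 replicate 2 against its transcript length on a log axis, where members of 2000 nt or more sit near 0 (median 0.14) and members shorter than 700 nt sit high (median 1.41); Ndufa4, at 5.89, is not drawn.

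Summed over the members, CPM scaled by TMM (trimmed mean of M values) were 8716 ± 389 (SD, n = 3) in control mice at ZT0, 12050 ± 5234 (n = 4) at ZT6 and 12232 ± 2261 (n = 4) after SD. Mutant mice had 11302 ± 809 (n = 2) at ZT6 and 9400 ± 1097 (n = 4) after SD. Control ZT6 replicate 2 alone reached 19626, and without it the control ZT6 sum was 9524 ± 1682 (n = 3). The 3 ZT0 libraries lay close together at 8423, 8568 and 9157.5. Control SD libraries read 9949.5, 11686, 11940 and 15353 and mutant SD libraries 7767, 9755, 10019 and 10060, so the lowest control library fell inside the mutant range.

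**Figure D3:**
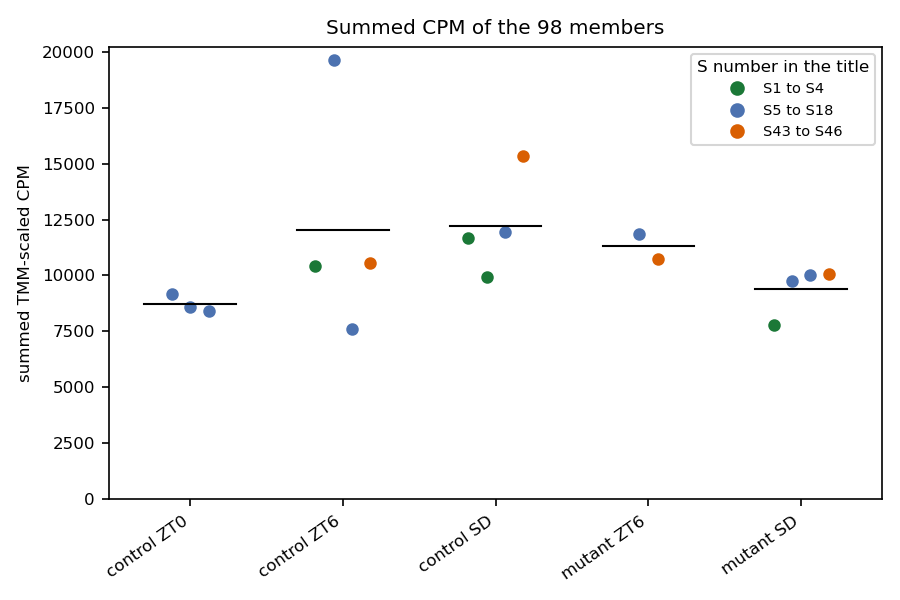
Each point is the summed TMM-scaled CPM of the 98 members in 1 library, coloured by the S number set, and each bar the group mean. Control ZT6 replicate 2 stands at 19626 and the other 16 libraries between 7583 and 15353.

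Time of day was compared first, as ZT6 against ZT0 in control mice. No member passed the test (0 of 93 called in either direction; 0% of all genes; edgeR's quasi-likelihood test with Benjamini-Hochberg adjustment over all genes), and without adjustment 16 members and 694 of all 21346 genes had p under 0.05. DESeq2, run as an alternative on each of the 7 comparisons of the 17 libraries, called 0 members in each. Of all genes it called 0.108% here, 0.0843% for SD in control mice, 0.0796% for SD in mutant mice, 0.0375% for their interaction, 0.00468% for genotype after SD, 0.0703% for genotype at ZT6 and 0.0234% for the mean genotype difference. The members' median log2 difference was 0.54, with 88 of 93 higher at ZT6, beside a median of 0.09 over all genes. Within S5 to S18, the only set with ZT0 libraries, it was 0.56, and other genes shorter than 700 nt had 0.50 there. Without control ZT6 replicate 2 the members' median was 0.09. Accessory subunits of complex I had the highest median of the 7 complex lists (0.65) and complex II the lowest (0.22).

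Ndufa9, an accessory subunit needed for a stable complex I, had the smallest p of the members in the time comparison. It read 3.34, 4.95 and 6.66 CPM at ZT0 and 9.46, 11.5, 35.9 and 30.8 CPM at ZT6. The groups did not overlap, and the lowest ZT6 values came from replicates 1 and 2. The log2 difference was 2.13 ± 0.61 (SE), with an unadjusted p of 0.0031 and an edgeR adjusted p of 0.96, and it stayed between 1.76 and 2.40 when single libraries were left out. Over all 17 libraries Ndufa9 ranged from 3.34 to 48.1 CPM, and it was below its median in control ZT6 replicate 2 (deviation -0.85), where short members were high.

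Sdhb, the iron-sulfur subunit of complex II, read 81.6, 81.4 and 72.9 CPM at ZT0 and 129, 194, 74.5 and 134 CPM at ZT6. Replicate 3 of ZT6 fell within the ZT0 range and the others lay above it (log2 difference 0.76 ± 0.24, edgeR adjusted p 0.96). Ndufb7, an accessory subunit of complex I, read 45.3, 43.6 and 37.7 CPM at ZT0 and 63.3, 182, 41.2 and 91.2 CPM at ZT6. Here too replicate 3 overlapped ZT0 (1.16 ± 0.43, adjusted p 0.96 in edgeR; 0.62 without control ZT6 replicate 2). Ndufb11 and Atp5o, a further accessory subunit of complex I and the stalk subunit OSCP of complex V, differed by 0.80 ± 0.27 and 0.85 ± 0.36, and by 0.43 and 0.34 without control ZT6 replicate 2. Ndufaf4, an assembly factor, was the member with the most negative value (-0.34 ± 0.27; -0.21 without control ZT0 replicate 3).

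Sleep deprivation was compared with ZT6 within each genotype. In control mice 0 of 93 members were called (0% of all genes), none had an unadjusted p under 0.05 (1318 of all genes did), and the median was 0.03 beside -0.02 over all genes. That median was -0.19 without libraries S43 to S46 and 0.37 without control ZT6 replicate 2. Within the sets it was 0.06 in S1 to S4, -0.10 in S5 to S18 and 0.61 in S43 to S46, where 1 library stands against 1. Ndufs8, an iron-sulfur subunit of the complex I core, had one of the smallest p of the members with a log2 difference of 0.72 ± 0.46 (edgeR adjusted p 0.94). It read 9.64, 11.9, 3.28 and 8.01 CPM at ZT6 and 10.3, 10.6, 9.43 and 24.1 CPM after SD, and the groups overlapped. Without control SD replicate 4 the difference was 0.31. Cox7b2, a low-level form of a complex IV subunit, differed by -1.78 ± 0.94 (-0.92 without control ZT6 replicate 2), with at most 1.03 CPM in any library.

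In mutant mice SD was again called for 0 of 93 members (0% of all genes; edgeR), and 2 members and 461 of all genes had an unadjusted p under 0.05. The median was -0.27 beside -0.01 over all genes, and 78 of 93 members were lower after SD. Within sets it was -0.29 in S5 to S18 and -0.07 in S43 to S46. With 2 mutant libraries at ZT6, it ranged from -0.35 to -0.02 when single libraries were left out. Cox6a2 had the smallest p of the members here (-1.45 ± 0.54, unadjusted edgeR p 0.017). It read 1.52 and 4.94 CPM at ZT6 and 1.45, 1.04, 1.29 and 0.897 CPM after SD. Its difference ranged from -2.05 to -0.39 with single libraries left out. Sdha, with an unadjusted edgeR p of 0.14, read 627 and 691 CPM at ZT6 and 412, 567, 594 and 551 CPM after SD. The groups did not overlap (-0.31 ± 0.20, edgeR adjusted p 1.0; -0.20 without mutant SD replicate 1). The interaction of SD with genotype was called for 0 of 93 members (0% of all genes; edgeR; 2 members and 530 of all genes with an unadjusted p under 0.05), with a median of -0.25 beside 0.03 over all genes, and without control ZT6 replicate 2 the median was -0.65. Cox6a2 was 1 of these 2 members (-1.51 ± 0.71), and its value ranged from -2.13 to -0.45 with single libraries left out.

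Genotypes were compared after SD with 4 libraries each. No member was called (0 of 93; 0% of all genes; 3 members and 631 of all genes had an unadjusted p under 0.05). The median log2 difference, mutant minus control, was -0.42 beside -0.02 over all genes, and 89 of 93 members were lower in mutant mice. Every role list had a negative median, from -0.55 in complex III and -0.50 in complex IV to -0.32 in complex II and -0.24 in the assembly factors. Leaving out single libraries moved it between -0.54 and -0.28. Within S1 to S4 it was -0.49 (1 mutant, 2 control), in S5 to S18 -0.34 (2 mutant, 1 control) and in S43 to S46 -0.71 (1 of each). Other genes shorter than 700 nt had medians of -0.24, -0.23 and -0.66 in the same 3 sets.

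Cox6a2, the heart and muscle form of subunit VIa of complex IV, had the smallest p among the members in that comparison. It read 4.86, 3.24, 1.19 and 5.04 CPM in control SD mice and 1.45, 1.04, 1.29 and 0.897 CPM in mutant SD mice. Control SD replicate 3 fell among the mutant values. The log2 difference was -1.61 ± 0.47 (unadjusted p 0.0036, edgeR adjusted p 0.999), but -0.04 within S5 to S18, where control replicate 3 is the only control library. Cox4i1 read 448, 367, 371 and 576 CPM in control and 261, 275, 310 and 351 CPM in mutant SD mice. Every mutant value lay below every control value, and the difference was -0.56 ± 0.26 (edgeR adjusted p 0.999). Ndufs7 and Ndufs3, 2 core subunits of complex I, differed by -0.57 ± 0.27 and -0.62 ± 0.29, and Cox6a1, the form of subunit VIa made in most tissues, by -0.58 ± 0.28.

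Pituitary markers were highest in 1 of these libraries. Gh, Prl, Cga, Lhb, Tshb and Fshb summed to 23250 CPM in mutant SD replicate 1, to 0.126 to 1097 CPM in the other mutant SD libraries and to 0.202 to 20.1 CPM in control SD libraries, and Gh was at 0 in 3 and Lhb in 11 of the 17 libraries. That replicate had the lowest members' sum (7767) and the lowest sum of mitochondrially encoded genes (35954 CPM, against 42918 to 82570 in the others). Without the 3 libraries whose pituitary markers exceed 100 CPM (the third is control ZT6 replicate 1), the members' median between genotypes after SD was -0.32.

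At ZT6 the genotypes gave 0 called members of 93 (edgeR, 0% of all genes). Ndufa4, described below, was the 1 member with an unadjusted p under 0.05, beside 566 of all genes. The members' median was -0.13 beside -0.06 over all genes, and 0.25 without control ZT6 replicate 2. Within S5 to S18 it was -0.13 and within S43 to S46 0.01. Averaged over ZT6 and SD, 0 of 93 members were called (0% of all genes), 5 members and 768 of all genes had an unadjusted p under 0.05, and the median was -0.30 beside -0.05. Without control ZT6 replicate 2 it was -0.07. Ndufa11, a membrane-arm subunit of complex I, differed by -0.67 ± 0.30, Ndufs7 by -0.46 ± 0.21 and Cox7a1 by -1.08 ± 0.49 (edgeR adjusted p 0.94 for each). Without control ZT6 replicate 2 these were -0.33, -0.22 and -0.42, and without mutant ZT6 replicate 4 Ndufa11 was at -0.40. Cox6a2 differed by -0.85 ± 0.37 (edgeR adjusted p 0.94), and by -1.34 to -0.52 with single libraries left out. Cox7a1 at ZT6 was carried by control replicate 2, at 9.24 CPM against 2.07, 1.41 and 0.627 in the other control libraries.

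**Figure D4:**
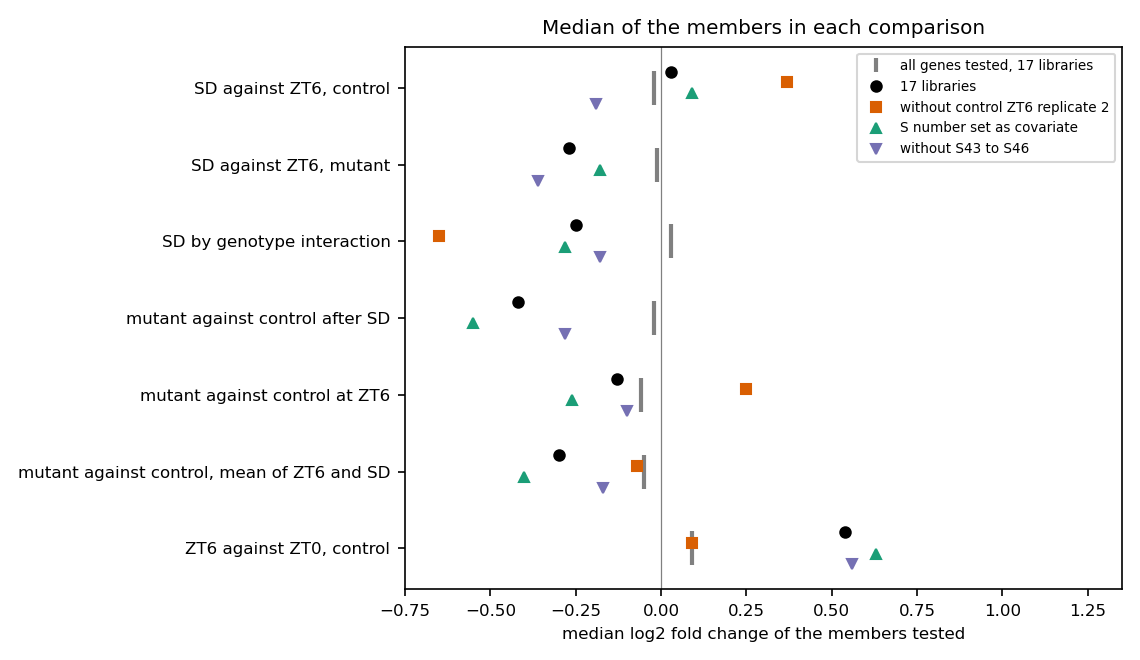
Points give the members' median log2 fold change in each comparison with 17 libraries, without control ZT6 replicate 2 (where that library enters), with the S number set as a covariate and without libraries S43 to S46. Grey ticks give the median of all genes tested. Leaving out control ZT6 replicate 2 moved ZT6 against ZT0 from 0.54 to 0.09 and the interaction from -0.25 to -0.65.

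Other genes of the pathway were read beside the members. None of their lists had a called gene in these 7 comparisons. In ZT6 against ZT0, the 89 cytosolic ribosomal protein genes tested had a median of 0.60 (86 higher) and the 78 mitochondrial ribosomal protein genes one of 0.34 (68 higher). The 13 mitochondrially encoded genes stood the other way, at -0.48 with 12 lower, the tricarboxylic acid cycle list at 0.09 and the regulators of mitochondrial genes at 0.00. Cytosolic and mitochondrial ribosomal protein lists had median deviations from their gene medians of 1.29 and 0.74 in control ZT6 replicate 2. In the other control ZT6 libraries these were -0.56 to 0.15 and -0.37 to 0.01, and at ZT0 -0.25 to -0.003 and -0.18 to -0.03. In the genotype comparison after SD the cytosolic ribosomal proteins were at -0.42 (88 of 89 lower), the mitochondrial ones at -0.33 (71 of 78 lower), glycolysis at -0.29 (17 of 17 lower), the tricarboxylic acid cycle at -0.10 and the mitochondrially encoded genes at -0.06. Cycs, the somatic cytochrome c gene, differed by -0.29 ± 0.44 there, and Atpif1, the ATP synthase inhibitor, by -0.42 ± 0.32.

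The genotypes at ZT0 could only be compared with all 22 libraries, and the 3 mutant ZT0 libraries are those with few neural transcripts. Their neural markers summed to 99.4 to 638 CPM against 11300 to 12480 CPM in control ZT0 libraries, and the collagen and proteoglycan genes to 7689 to 22190 against 44.7 to 291 CPM. Genotype and this difference cannot be told apart. Among 93 members 7 were higher and 4 lower (edgeR, adjusted p under 0.05), while 20.9% of all 20763 genes tested were higher and 29.2% lower (50.1% in either direction). DESeq2 called 13 members higher and 2 lower, with 48.6% of all genes called. The members' median was 0.16 beside -0.22. Ndufa9 rose by 2.85 ± 0.65 (edgeR adjusted p 0.0016), with 46.5, 19.2 and 40.8 CPM in the mutant libraries against 3.27, 4.84 and 6.62 CPM in the controls. Ndufa4l2, a hypoxia-inducible paralogue of Ndufa4 found in pericytes, read 1.43, 146 and 68.3 CPM against 0.794, 1.27 and 1.30 CPM (6.00 ± 1.39, adjusted p 0.0017 in edgeR). Its mutant replicate 1 was barely above the controls.

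Cox6b2 rose by 2.63 ± 0.64, with 18.6, 14.9 and 16.8 CPM against 2.35, 3.26 and 2.49 CPM (edgeR adjusted p 0.0023). Ndufa9, Ndufa4l2 and Cox6b2 were called with any single library of either group left out. Cox6a1 rose by 1.19 ± 0.37, with 314, 171 and 207 CPM against 102, 111 and 90.8 CPM, and lost its call only without mutant replicate 1. The other 3 that were higher were Ndufv3 (1.27 ± 0.44), Ndufa7 (1.22 ± 0.49) and Atp5d (1.16 ± 0.45, and 0.73 without mutant replicate 1), 2 accessory subunits of complex I and the delta subunit of complex V. The lower members were the assembly factors Ndufaf5 (-1.34 ± 0.45) and Ndufaf3 (-1.21 ± 0.42), the complex II flavoprotein Sdha (-0.89 ± 0.35) and Cox7b2, which was at most 1.03 CPM in neural libraries. Each of these 7 lost its call when at least 1 library was left out. Of the other lists, 76 of 89 cytosolic ribosomal protein genes were higher and 1 lower, 18 of 78 mitochondrial ribosomal protein genes were higher, and 6 of 13 mitochondrially encoded genes were lower (median of the 13, -1.38). Ppargc1a, the coactivator PGC-1 alpha, fell by 4.57 on the log2 scale (SE 0.88), and 7 of 17 glycolysis genes were higher and 4 lower.

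Libraries S43 to S46 were compared with the mean of S1 to S4 and S5 to S18, each weighted equally, in a fit with group and set as terms. These other sets hold the other 13 of the 17 libraries. The comparison was added after the values were seen. Here edgeR called 11 of 93 members higher and 4 lower. Of all genes it called 11.2% higher and 8.25% lower (19.5% in either direction). The share of members called higher was thus close to that of all genes, and the share called lower was smaller. DESeq2 called 18 members higher and 13 lower, a larger share than its 25.4% of all genes in either direction. The members' median was 0.01 beside -0.05 over all genes. The calls named below are of single genes and do not show a shift of the members as a set. Called members of complex III and of complex V went in both directions, and those of complex I were all higher. Among accessory subunits of complex I, Ndufb3 rose by 1.34 ± 0.21 (edgeR adjusted p 6.1e-04), Ndufs6 by 1.38 ± 0.29, Ndufb10 by 1.18 ± 0.27, Ndufa5 by 1.04 ± 0.22, Ndufa12 by 1.03 ± 0.19 and Ndufa8 by 0.97 ± 0.20. The assembly factor Ndufaf2 rose by 1.16 ± 0.16 (adjusted p 1.7e-04 in edgeR). Ndufb3 read 138 to 197 CPM in the 4 libraries and 40.5 to 136 CPM in the 13 others. Ndufaf2 read 34.7 to 46.3 against 12.3 to 32.6 CPM. Of the words of Ndufaf2, 34.9% are unique, since it shares 65.1% with the gene B230220B15Rik, which has no line in the table. Ndufs8, Uqcrb, Ndufaf7 and Atp5g2 were the other higher members. Without control SD replicate 4 the calls of Ndufa5, Ndufb10, Uqcrb and Ndufs8 were lost, and those of Ndufs8 and Ndufaf7 were also lost without others. Cyc1, cytochrome c1 of complex III, fell by 0.98 on the log2 scale (SE 0.29), with 13.9 to 62.1 CPM against 35.9 to 104 CPM in the 13 others, so the sets overlapped. Its call was lost without control ZT6 replicate 4 (log2 difference -0.62), control SD replicate 1 or mutant SD replicate 4. Of other lists, 12 of 78 mitochondrial ribosomal protein genes were higher and 5 lower, and 5 of 17 glycolysis genes higher and 2 lower.

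The 3 genes for ATP synthase subunit c were counted differently between the sets. In S43 to S46, Atp5g2 read 28.8 CPM in control ZT6, 61.2 in control SD, 43.9 in mutant ZT6 and 32.9 in mutant SD, and it was at most 13.4 CPM in the 13 others apart from control ZT6 replicate 2, at 34.0 CPM. Its own counts rose by 2.12 ± 0.37 (edgeR adjusted p 0.0012). Summed with 2 pseudogene copies, Gm10175 and Gm10231, it read 41.4 to 67.3 CPM in S43 to S46, inside the 36.3 to 103 CPM of the 13 others. Atp5g1 and Atp5g3 fell by 0.60 (SE 0.20, adjusted p 0.047 in edgeR) and by 0.62 (SE 0.18, adjusted p 0.026), and Atp5g1 lost its call in 13 and Atp5g3 in 4 of the 17 fits that each left out 1 library. Atp5g2 shares 615 of its 1641 distinct 31-base words (37.5%) with Gm10175 in GENCODE M21. Gm10175 read 10.1 CPM in control ZT6 replicate 4 and 0.1 CPM or less in the other libraries of S43 to S46, and 30.3 to 94.5 CPM elsewhere. Gm10231, which shares 411 of those words, read 6.2 to 10.8 CPM in S43 to S46 and 0 in the 13 others. Reads of the gene and its copies cannot be told apart over the shared stretches, so the level of Atp5g2 is uncertain. The promoters of Atp5g2 and Atp5g3, printed above, hold the NRF1 letters once each and that of Atp5g1 holds no searched letters.

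Ndufa4 (chr6:11900292-11907497), first described in complex I and now placed with complex IV, was listed at 0 in all 4 libraries S43 to S46, where 3 counts correspond to 0.106 to 0.205 CPM. In the other libraries it ran from 0.0298 CPM (mutant ZT6 replicate 1) to 78.9 CPM (control ZT6 replicate 2), with 21.8, 4.91 and 36.4 CPM at ZT0. No other member tested varied as much (log2 SD 3.57). In S1 to S4 it stayed between 0.629 and 1.26 CPM. It shares few words with other GENCODE M21 genes (97.8% unique), and the cause of its zeros was not tested. Fitted log2 fold changes of Ndufa4 rest on libraries at or near 0 and are not read as sizes. By edgeR, the members with an unadjusted p under 0.05 include Ndufa4 for SD in mutant mice and for the interaction. They also include it for genotype at ZT6 and for the mean genotype difference.

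**Figure D5:**
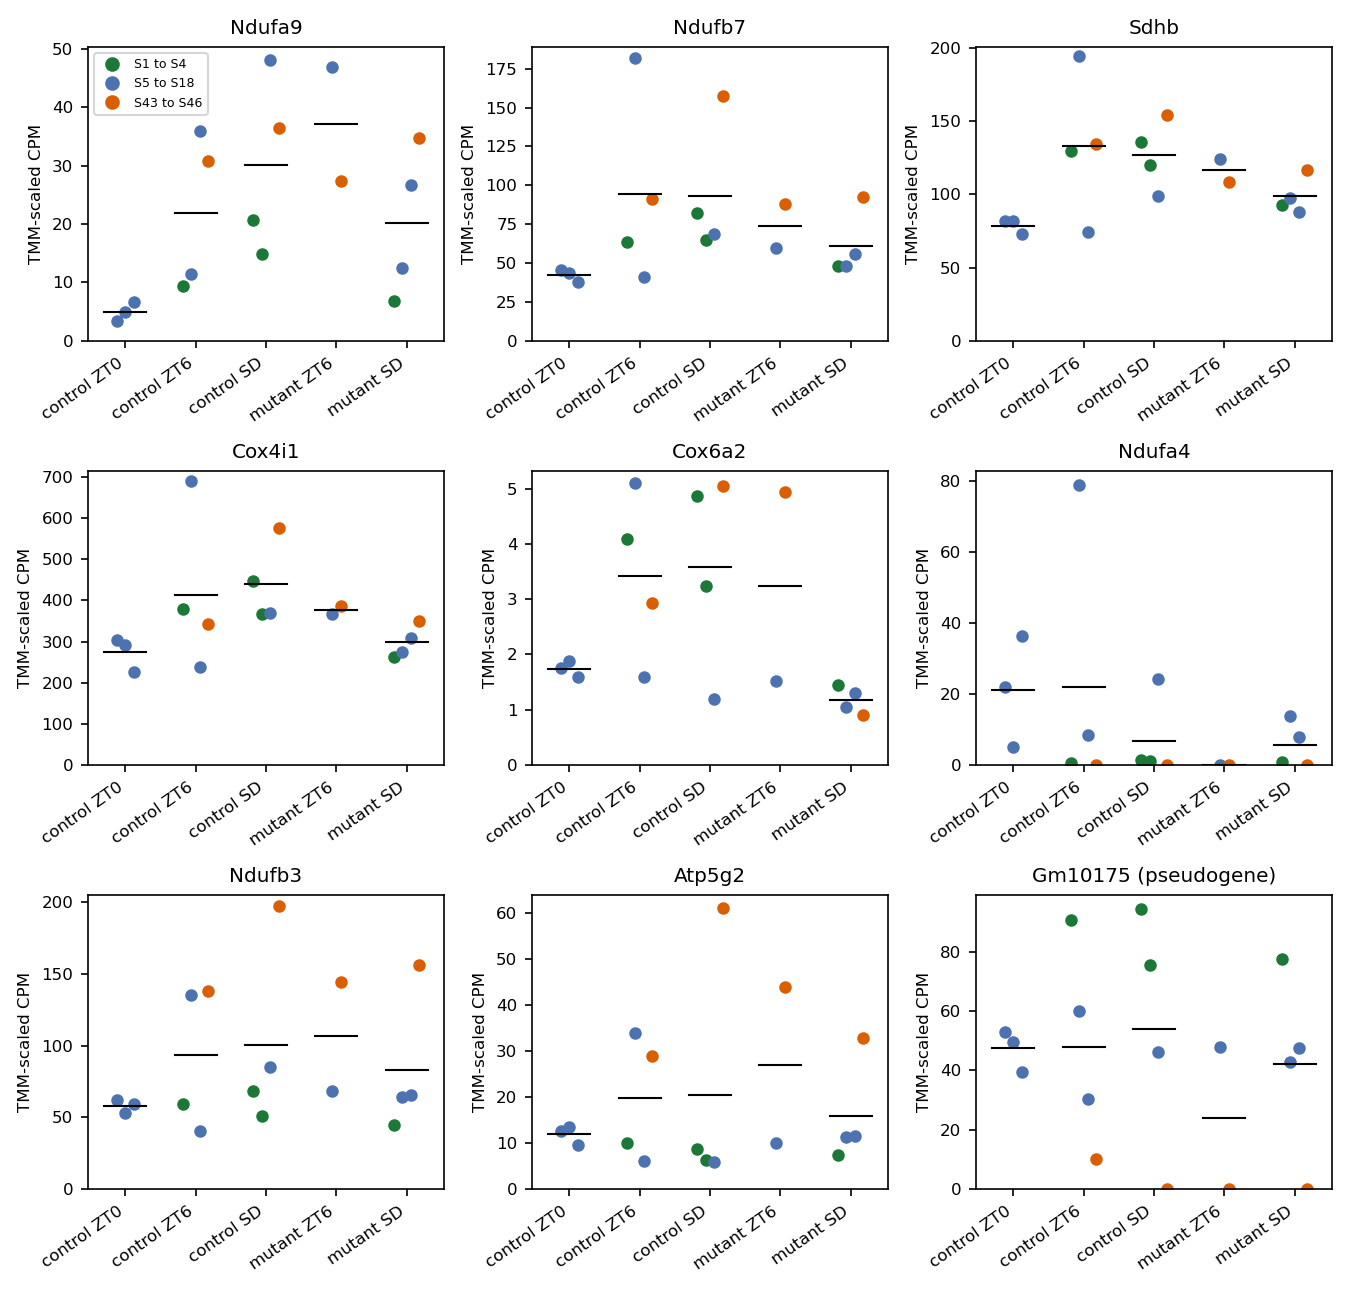
Each point is the TMM-scaled CPM of 1 library for 8 members and the pseudogene Gm10175, coloured by S number set, and bars are group means. Ndufa9 at ZT0 (3.34 to 6.66 CPM) lies below both other control groups. Cox6a2 is low in all 4 mutant SD libraries (0.897 to 1.45 CPM). It is also low at control ZT0 (1.59 to 1.88 CPM), in control ZT6 replicate 3 (1.58 CPM), mutant ZT6 replicate 1 (1.52 CPM) and control SD replicate 3 (1.19 CPM). Ndufb3, Atp5g2 and Gm10175 separate S43 to S46 from most other libraries.

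Shared sequence touched other members too. Of the 98, 22 share no 31-base word with another gene, 61 are at least 90% unique and 14 less than 75%. Ndufb4, an accessory subunit of complex I, has a copy, Ndufb4c (chr15:73809507-73809896, annotated as a processed pseudogene), in which all 360 words are shared with Ndufb4. Ndufb4c was given more counts over the 22 libraries (22999) than Ndufb4 (9294). Ndufb4 read 7.68 to 44.1 CPM and Ndufb4c 28.1 to 69.9 CPM, so their split is uncertain.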

How the data were processed

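Hypothalamic RNA of 22 libraries was prepared with a polyA kit. Per the labels' protocols, the authors trimmed reads with Trimmomatic 0.38, quantified transcripts with kallisto 0.44.0 and summed them to genes with tximport; the deposited values are estimated counts, given as whole numbers. Members and gene lists were chosen with earlier results of these data known. Of 41461 gene lines, 5 repeats were dropped. Mutant ZT6 replicate 2 (7348 counts) and 4 libraries whose neural markers were under 0.2 of the median were left out of the main fits, leaving 17 with 14609454 to 46965594 counts. In these, 3 counts correspond to 0.0639 to 0.205 CPM, which covers counting error only. Tests were two-sided edgeR 4.0.16 quasi-likelihood tests (R 4.3.3, limma 3.58.1) with TMM scaling, the filterByExpr filter and Benjamini-Hochberg adjustment over all genes, with the threshold at an adjusted p of 0.05. One fit over all kept groups shared the spread. SE is the log2 fold change divided by the square root of F. Alternatives were DESeq2 1.42.0, RLE scaling, no filter, set as covariate and left-out libraries. The fits were tested on simulated data: with 200 changed genes, the share of 4-fold and 2-fold changes called was 89% and 21% for genotype after SD, 80% and 29% for SD in control mice, 76% and 16% for ZT6 against ZT0, 70% and 5% for genotype at ZT6, 65% and 11% for SD in mutant mice, and 27% and 1% for genotype at ZT0. The changed genes were drawn from those above a set level, and the simulated counts held no shifts of whole libraries or S number sets. Named members were taken from the called ones, from the 5 with the smallest p or from those farthest from the members' median. Not all of these are described. Fixed core subunits and isoform pairs were used for levels. Shared 31-base words and gene coordinates came from GENCODE M21 (GRCm38), not the authors' index. Promoters came from RefSeq (GRCm38.p6). Figures used Python 3.11.15 and matplotlib 3.10.9.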

Additional observations from a re-analysis of the deposited data

Results flagged for a closer look

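Within each group of 4 libraries, the highest or lowest value was checked for a gap to its neighbour that was large against the range of the group. Of 111 sets of values, 12 stood apart, 5 of them through high values in control ZT6 replicate 2. Chance alone gives about 1 in 20 for independent values. Members moved together within a library, so the 12 cannot be set against that rate. In mutant SD replicate 1 the members summed to 7767 CPM and the complex I assembly factors to 138.6 CPM, both below the other 3 libraries. Control ZT6 replicate 2 stood above its group for Cox5a (320.9 CPM), Cox6c (406.7 CPM), Ndufa4 (78.94 CPM), Cox7a1 (9.236 CPM) and Atp5e (364.6 CPM). Control SD replicate 4 was high for Atp5g2 (61.16 CPM) and Cox7a1 (4.235 CPM), and mutant SD replicate 4 for Atp5g2 (32.86 CPM). Control SD replicate 3 was high for Ndufa4 (24.25 CPM) and stood apart for Sdhd (113.5 CPM).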

How the results depend on the processing

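In each of the 7 comparisons of the 17 libraries, 0 members were called under every alternative run. The members' median for SD in control mice was -0.19 without libraries S43 to S46 and -0.08 without the 3 libraries high in pituitary markers, both reversed, and -0.16 to 0.37 with single libraries left out. For SD in mutant mice it was -0.07 with all 22 libraries, -0.10 without those 3, and -0.35 to -0.02 with single libraries left out. The same ranges were -0.65 to -0.10 for the interaction, -0.54 to -0.28 for genotype after SD, -0.29 to 0.25 at ZT6, -0.36 to -0.07 for their mean and 0.09 to 0.68 for ZT6 against ZT0. For genotype at ZT0 the median was 0.37 with RLE scaling. DESeq2 gave 13 higher, 2 lower and a median of 0.37. Without the filter 2 were lower, and with only the groups compared 13 were higher. Single left-out libraries gave 4 to 7 higher, 0 to 4 lower and a median of -0.10 to 0.28. For S43 to S46 against the mean of the other sets, DESeq2 gave 18 higher and 13 lower, and no filter gave 7 lower and a median of -0.02. Single left-out libraries gave 6 (without control SD replicate 4) to 24 higher, 1 to 15 lower and a median of -0.12 to 0.09; without control ZT6 replicate 2 the counts were 24 and 14, and without control ZT6 replicate 3 they were 22 and 15. With all 22 libraries Sdha for SD in mutant mice was 0.15 and Cox6b2 for genotype at ZT6 was 0.93. With single libraries left out, genotype at ZT6 ranged from -1.52 to 0.16 for Atp5e and from -1.58 to 0.04 for Cox7a1, both reversed without control ZT6 replicate 2. The fitted value of Ndufa4 for SD in control mice ranged from -4.69 to 1.22; it rests on libraries at 0 and is no measure of size or direction. The cause of these shifts was not tested. No paired analysis was possible because replicate numbers follow accession order only and no label pairs libraries across groups. Depth limits members near the floor, such as Cox7b2.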
